A study of Mus musculus with 7 samples.

Results

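The proteasome genes of the angiotensin II-exposed mouse aorta were taken as all rows of the gene count table whose symbol begins with Psm, a letter from a to g and a digit, with a total of at least 10 counts over the 7 libraries. Of 50 rows with such a symbol 49 met the total, out of 21878 genes in the table. The row left out was Psmb11, the beta subunit of the thymus, which had a total of 0 counts. The lowest total inside the rule was 106 counts, for Psma8. All 49 also passed the filter on low counts that left 14609 genes in the test. They comprise 8 alpha and 7 constitutive beta subunits of the 20S core, 3 immunoproteasome subunits, 6 ATPases and 11 other subunits of the 19S regulatory particle, 3 chaperones of the regulatory particle, 4 chaperones of the core, 6 further activators and inhibitors, and Psmc3ip, a recombination factor that only shares the name.

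The 26S proteasome is the protease complex that degrades proteins marked with ubiquitin. Its 20S core is a barrel of stacked rings, with alpha subunits on the outside and beta subunits inside, and the beta subunits Psmb5, Psmb6 and Psmb7 carry the catalytic sites. The 19S particle binds ubiquitin chains, removes them and unfolds the substrate with its ring of ATPases. Interferon-gamma induces Psmb8, Psmb9 and Psmb10, which take the places of Psmb5, Psmb6 and Psmb7 in newly built cores and so form the immunoproteasome of leukocytes and inflamed tissue, and it also induces the PA28 activator encoded by Psme1 and Psme2.

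The tissue was abdominal aorta of C57BL/6 males, 8 weeks of age, given up to 28 days of angiotensin II (Ang II), a peptide that raises blood pressure and is used to induce aortic aneurysm. The 3 libraries ApoE 1 to ApoE 3 were labelled ApoE-/- and the 4 libraries DKO 1 to DKO 4 were labelled ApoE-/-Nur77-/-. By these labels the ApoE-/- genotype and the Ang II exposure were common to both groups, and no library analysed here was without either. Loss of the apolipoprotein ApoE raises blood cholesterol. Nur77, the product of Nr4a1, is a nuclear receptor. Nothing in the labels ties libraries to separate mice, so the p-values speak of the spread between these libraries, which may be technical.

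Gene counts summed to 19295287 to 21727192 per library. Both targeted genes were read in libraries labelled as knockouts of them. Nr4a1 was read at 193, 56.4 and 111 CPM (counts scaled by library size and the trimmed mean of M values) in ApoE 1 to ApoE 3 and at 46.2, 57, 90.1 and 92.7 CPM in DKO 1 to DKO 4 (log2 fold change -0.75 with SE 0.42, adjusted p = 0.36, edgeR). Its fold change was in the direction of the label, and the groups overlapped. Apoe, a knockout in either group by its label, had 233, 250.3 and 184 against 34.7, 18.3, 33.8 and 28.1 CPM (log2 fold change -2.95 with SE 0.23, adjusted p = 0.0227). The labels give both groups the same Apoe genotype, yet Apoe was lower without overlap in the DKO libraries. What sets that difference was not tested, and below it cannot be told apart from the labelled difference in Nr4a1. Gene counts can hold reads from any transcript part that an altered allele still makes, and every direction below is that of the libraries labelled ApoE-/-Nur77-/- (DKO) against the libraries labelled ApoE-/-. All 7 smooth muscle markers were present, with a summed level of 15306 to 23763 against 8055 to 29259.7 CPM. Atrial muscle markers were highest in ApoE 3 (1449.9 CPM in sum) and ApoE 2 (426 CPM), against 82.5 CPM in ApoE 1 and 48.4 to 106 CPM in the DKO libraries.

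Most proteasome transcripts were read at slightly lower levels in the DKO libraries. Summed over the 49 members, the level was 4106, 3784 and 4241 CPM in ApoE 1 to ApoE 3 and 3362, 3479.6, 3473 and 3539 CPM in DKO 1 to DKO 4, and the DKO mean was 85.7% of the ApoE mean. Every DKO library lay below every ApoE library in that sum. Of the 49 members 42 had a negative fold change and the median log2 fold change was -0.22, beside 52.6% negative and a median of -0.021 over all genes tested. The median of the members was -0.078 once a trend of the fold changes with transcript length was removed, an alternative chosen after seeing the data. In a whole-tissue sample, fewer cells of a kind that makes much of a transcript and less of the transcript per cell cannot be told apart.

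No member passed edgeR's quasi-likelihood test at an adjusted p under 0.05 in either direction (adjusted p 0.132 to 0.975); over all genes 0.0274% were called lower and 0% higher. At an unadjusted p under 0.05, 24 members were lower and 1 higher, beside 11.8% and 8.00% of all genes. DESeq2 called 12 members lower and 0 higher, beside 4.80% and 3.23% of all genes with an adjusted p, and limma's voom with a weight for each library called 17 lower and 0 higher, beside 10% and 6.17%. These calls had 11 members in common: Psma1, Psma6, Psmb2, Psmb3, Psmb4, Psmb5, Psmb7, Psmc3, Psmc5, Psmd4 and Psmd8. The CPM of 25 members lay lower in every DKO library than in any ApoE library and that of 2 lay higher, beside 9.24% and 7.08% of all genes. Genes with short transcripts were lower more often. Of the 2073 tested genes with a transcript of up to 1500 bases, as in 26 members, 359 were lower and 60 higher without overlap. On the deposited FPKM, which are per gene length, 23 members were lower without overlap and 1 was higher, beside 8.64% and 6.74% of all genes. Dividing each gene by a length does not remove a trend of the fold changes with length. Members varied little within a group, with a median coefficient of variation of 7.96% in the ApoE and 6.65% in the DKO libraries, beside 13.3% and 15.2% over all genes tested, which include genes with far fewer counts.

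**Figure D1:**
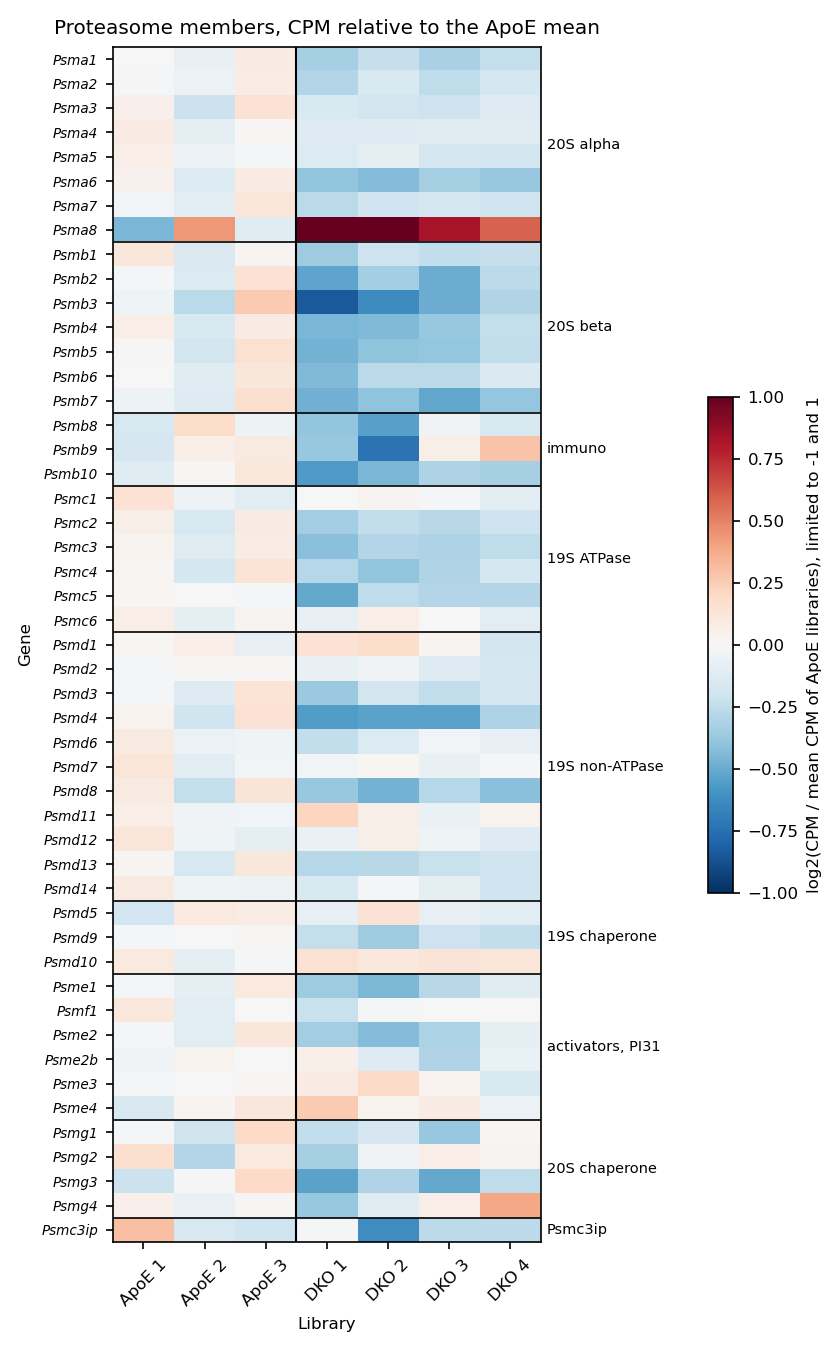
Each cell is the log2 ratio of a member's CPM in 1 library (columns) to its mean in the ApoE libraries, with genes (rows) grouped by role and colours limited to -1 and 1. The 7 constitutive beta subunits are blue in all 4 DKO libraries, while Psmd1, Psmd11, Psme3 and Psme4 are near white or mixed and Psma8 is red.

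The alpha ring, which forms the gate of the core, was lower in the sum of its 7 widely expressed members in every DKO library. The sum of Psma1 to Psma7 was 730.2, 666 and 756 CPM in the ApoE and 602, 620.2, 612 and 622 CPM in the DKO libraries. Psma6 had the most negative fold change among alpha subunits, with 121, 107 and 125 CPM in the ApoE and 89.9, 87.2, 93.4 and 90.7 CPM in the DKO libraries (log2 fold change -0.38 with SE 0.081, adjusted p = 0.133). Its highest DKO library lay below its lowest ApoE library, ApoE 2. Psma2, the alpha subunit with the highest level per length (90.2 FPKM over all libraries), was at 107, 103 and 113 against 88.2, 96.9, 90.6 and 95.7 CPM (log2 fold change -0.22 with SE 0.076, adjusted p = 0.191). Its FPKM overlapped, at 90.5 in ApoE 1 and 92 in DKO 2. The other members of the ring, Psma1, Psma3, Psma4, Psma5 and Psma7, had log2 fold changes of -0.28, -0.17, -0.12, -0.15 and -0.21. Psma3 alone among the 7 overlapped in CPM, through ApoE 2 (78.5 CPM) below all 4 DKO libraries. The other 6 were lower without overlap, beside 9.24% of all genes and 359 of the 2073 tested genes with a transcript of up to 1500 bases. In FPKM Psma3 was lower without overlap, while Psma5 overlapped as Psma2 did (37.3 in ApoE 3 and 40.1 in DKO 2).

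Psma8, the alpha subunit of the testis-type proteasome, was near the limit of detection. It had 7, 14 and 8 counts in the ApoE and 21, 23, 19 and 14 counts in the DKO libraries (0.476 ± 0.152 against 0.911 ± 0.163 CPM, SD, n = 3 and n = 4). DKO 4 equalled ApoE 2 in counts and lay above it in CPM (log2 fold change 0.93 with SE 0.37, adjusted p = 0.225). Psmb11, the thymus subunit, was at 0 counts in all 7 libraries, which allows up to 0.133 to 0.164 CPM per library for counting error alone (3 counts).

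All 7 constitutive beta subunits were lower without overlap between the groups, in CPM and in FPKM, beside 9.24% and 8.64% of all genes. Of all tested genes with a transcript of up to 1500 bases, as in all of the 7 but Psmb1 (1758 bases), 359 of 2073 were lower without overlap in CPM. The 7 beta subunits summed to 833, 737 and 900.0 CPM in ApoE 1 to ApoE 3 and 584, 636, 631 and 692 CPM in DKO 1 to DKO 4. Their DKO mean was 77.2% of the ApoE mean (81.7% in FPKM). The median log2 fold change was -0.38 and no subunit passed edgeR's test. With the length trend removed the median of the beta ring was -0.14, beside -0.13 for all 14 constitutive core subunits. DESeq2 called 5 of the 7 lower and limma voom 7 of 7, beside 4.80% and 10% of all genes. ApoE 2 was the lowest ApoE library for each of the 7.

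Psmb3, a structural subunit of the ring, had the most negative fold change of all members. It was read at 106, 90.6 and 130.5 CPM in ApoE 1 to ApoE 3 and at 60.9, 70.4, 77.2 and 88.7 CPM in DKO 1 to DKO 4 (109 ± 20.1 against 74.3 ± 11.7 CPM, SD, n = 3 and n = 4; log2 fold change -0.55 with SE 0.16, adjusted p = 0.163). ApoE 2 and DKO 4 were close to each other, at 90.6 and 88.7 CPM. Psmb7, which carries the trypsin-like site, was at 113, 107 and 131 against 83.5, 88.5, 81.4 and 89.3 CPM (log2 fold change -0.45 with SE 0.093, adjusted p = 0.132), the smallest adjusted p of any member. Psmb5, the chymotrypsin-like subunit, was at 94.6, 82.3 and 104 against 67.4, 70.9, 71.7 and 78.8 CPM (log2 fold change -0.37 with SE 0.10, adjusted p = 0.158). Psmb6, the caspase-like subunit, was at 139.9, 128 and 151 against 103, 116, 116 and 126 CPM (log2 fold change -0.28 with SE 0.10, adjusted p = 0.196). For Psmb6 the gap between ApoE 2 and DKO 4 was small beside the spread within the groups. Psmb4, at 133 FPKM the most abundant member per length, was at 146, 125 and 148 against 102, 103, 108 and 118 CPM (log2 fold change -0.38 with SE 0.10, adjusted p = 0.156). Psmb1 (-0.26, the least negative of the ring) and Psmb2 (-0.40) completed it.

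**Figure D2:**
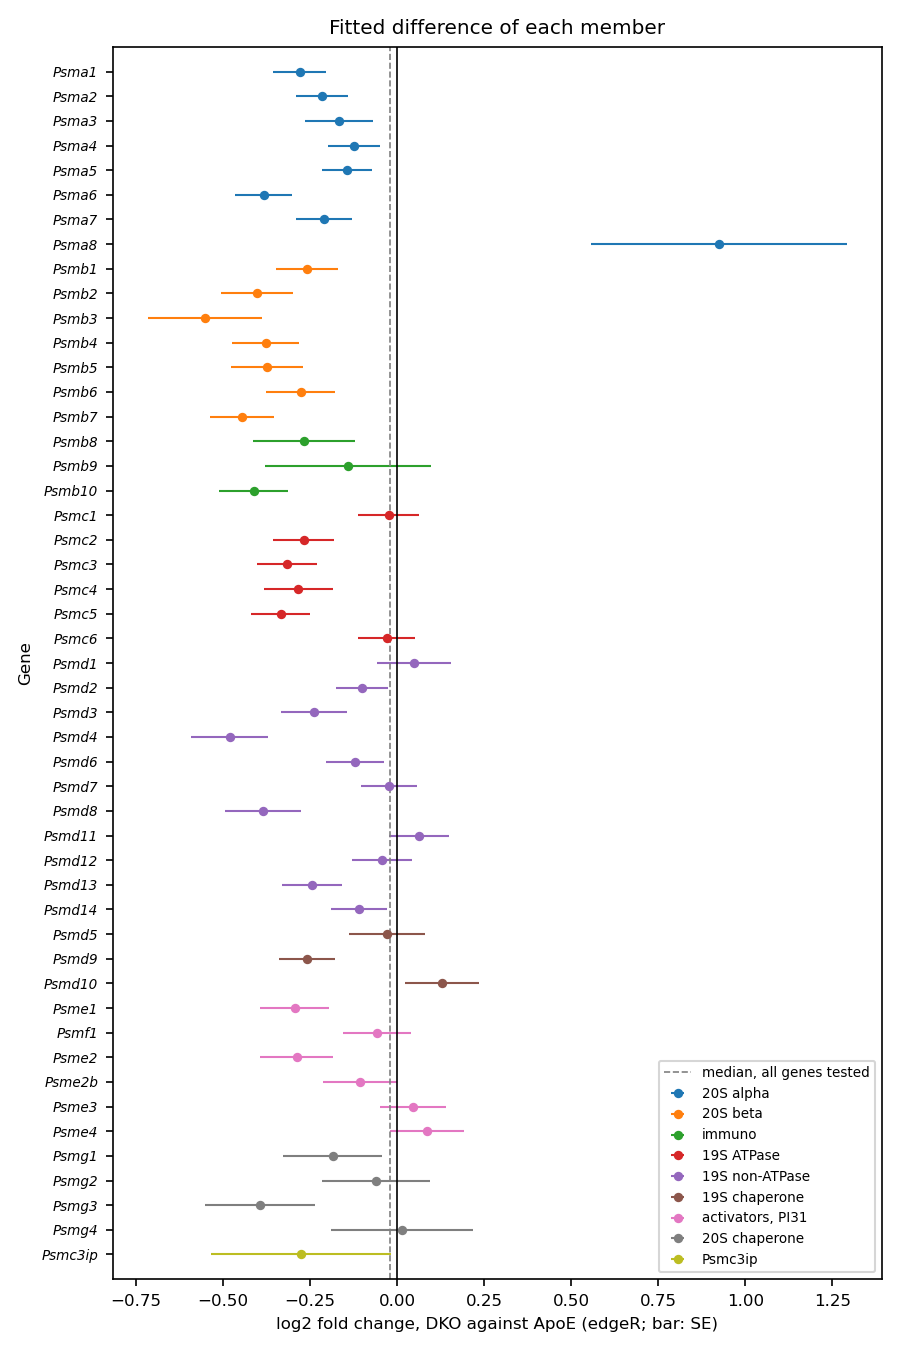
Points are edgeR log2 fold changes of the 49 members (DKO against ApoE) and bars are standard errors, with colours for roles and a dashed line at the median of all genes tested. The constitutive beta subunits lie between -0.55 and -0.26, and the 11 non-ATPase subunits spread from -0.48 to 0.063.

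Promoters are shown for Psmb3 and Psmd4, the members with the most negative fold changes of the core and of the regulatory particle, for the catalytic subunit Psmb5 and for its immunoproteasome replacement Psmb8. They are the 250 bases before the RefSeq start on GRCm38.p6, written 5′ to 3′ in the direction of the gene, at chr11:97703184-97703433 (plus strand), chr3:95042615-95042864 (minus strand), chr14:54617996-54618245 (minus strand) and chr17:34197945-34198194 (plus strand). Capitals mark matches on either strand to the core of the antioxidant response element (TGACNNNGC, the kind of site bound by the proteasome regulator Nfe2l1), of the interferon-stimulated response element (GAAA, any 2 bases, GAAA), of the gamma-activated site (TTCNNNGAA) and to the CCAAT box (CCAAT).
Psmb3: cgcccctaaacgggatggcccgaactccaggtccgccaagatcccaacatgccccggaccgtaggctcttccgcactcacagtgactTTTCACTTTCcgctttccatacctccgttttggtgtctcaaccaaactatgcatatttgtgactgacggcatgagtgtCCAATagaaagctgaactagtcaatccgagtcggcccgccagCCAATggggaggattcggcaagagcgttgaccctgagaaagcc
Psmd4: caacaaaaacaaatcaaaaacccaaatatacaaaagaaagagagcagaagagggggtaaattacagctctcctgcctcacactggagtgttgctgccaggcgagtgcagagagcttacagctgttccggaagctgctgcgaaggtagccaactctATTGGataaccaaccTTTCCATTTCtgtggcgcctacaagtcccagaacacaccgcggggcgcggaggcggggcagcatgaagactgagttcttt
Psmb5: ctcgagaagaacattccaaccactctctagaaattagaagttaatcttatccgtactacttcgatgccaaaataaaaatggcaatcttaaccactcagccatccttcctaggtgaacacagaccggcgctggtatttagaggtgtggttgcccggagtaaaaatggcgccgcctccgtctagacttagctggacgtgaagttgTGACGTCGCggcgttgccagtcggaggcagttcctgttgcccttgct
Psmb8: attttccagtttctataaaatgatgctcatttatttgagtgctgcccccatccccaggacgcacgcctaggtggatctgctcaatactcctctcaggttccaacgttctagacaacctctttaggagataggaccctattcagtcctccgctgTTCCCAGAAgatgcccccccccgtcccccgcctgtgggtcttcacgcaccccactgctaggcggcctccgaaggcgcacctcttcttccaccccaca
The Psmb5 window held 1 antioxidant-type match, starting 47 bases before the start, and the Psmb8 window held 1 gamma-activated match, starting 97 bases before it. The Psmb3 and Psmd4 windows each held an interferon-stimulated-type match, at 163 and 80 bases, and CCAAT boxes (2 in Psmb3 and 1 in Psmd4). RefSeq promoters were at hand for 41 of the 49 members (44 windows). Among these windows 11.4% held the antioxidant-type letters, 6.82% the interferon-stimulated type, 4.55% the gamma-activated type and 31.8% a CCAAT box, beside 10.2%, 2.98%, 7.02% and 33.8% of all 32851 promoter windows. The 22 windows of members that were lower without overlap held the antioxidant-type letters in 3 cases, the interferon-stimulated type in 3, the gamma-activated type in 0 and a CCAAT box in 7, against 2, 0, 2 and 7 of the other 22 windows. A match is a description of the letters and not a shown binding site.

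The 3 immunoproteasome subunits had negative fold changes like the constitutive ones, and 2 of the 3 overlapped between the groups. Psmb8 (chromosome 17, 34198195 to 34201454, GRCm38.p6) and Psmb9 (chromosome 17, 34182030 to 34187330) lie in the major histocompatibility complex, and Psmb10 lies on chromosome 8 (105935728 to 105938392). Psmb8 was read at 64.3, 81.7 and 69.5 CPM in ApoE 1 to ApoE 3 and at 54.6, 49.3, 70.2 and 64.5 CPM in DKO 1 to DKO 4 (log2 fold change -0.27 with SE 0.15, adjusted p = 0.347). The groups overlapped, with ApoE 2 highest and DKO 3 and DKO 4 above ApoE 1. Psmb9 was at 22.3, 26.2 and 26.7 against 19.2, 15, 26.1 and 30.6 CPM (log2 fold change -0.14 with SE 0.24, adjusted p = 0.784), and DKO 2 and DKO 4 were the lowest and the highest of all 7 libraries. Without DKO 2 its log2 fold change was 0.027. Psmb10 was at 40.3, 44.2 and 47.2 against 29.7, 32, 35.5 and 34.8 CPM (log2 fold change -0.41 with SE 0.10, adjusted p = 0.148), without overlap. DESeq2 called Psmb10 lower and limma voom did not, and its FPKM overlapped (11.4, 14.7 and 13.6 against 10.8, 10.8, 12.2 and 12.1).

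The share of each immunoproteasome subunit in the sum with its counterpart, computed from FPKM, overlapped between the groups for all 3 pairs. Psmb8 made up 29.9, 38.6 and 29.6% of Psmb8 plus Psmb5 in the ApoE libraries and 34.1, 30.1, 38.1 and 33.8% in the DKO libraries. Psmb9 made up 10.4, 12.7 and 10.6% against 12, 8.49, 13.9 and 15% of Psmb9 plus Psmb6, and Psmb10 14.6, 18.1 and 15.1% against 16.7, 16.5, 19.1 and 19% of Psmb10 plus Psmb7. The highest shares of Psmb8 and of Psmb10 in each group were in ApoE 2 and DKO 3, the libraries with the highest summed leukocyte markers of their groups (2663 and 4044 CPM). The highest share of Psmb9 was in DKO 4, the DKO library with the lowest leukocyte sum (1814 CPM). The part of leukocytes in these shares was not tested. With CPM divided by transcript length in place of FPKM the mean share of Psmb10 was 25% and 25.4% in place of 15.9% and 17.8%, so the size of that share depends on the length used.

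**Figure D3:**
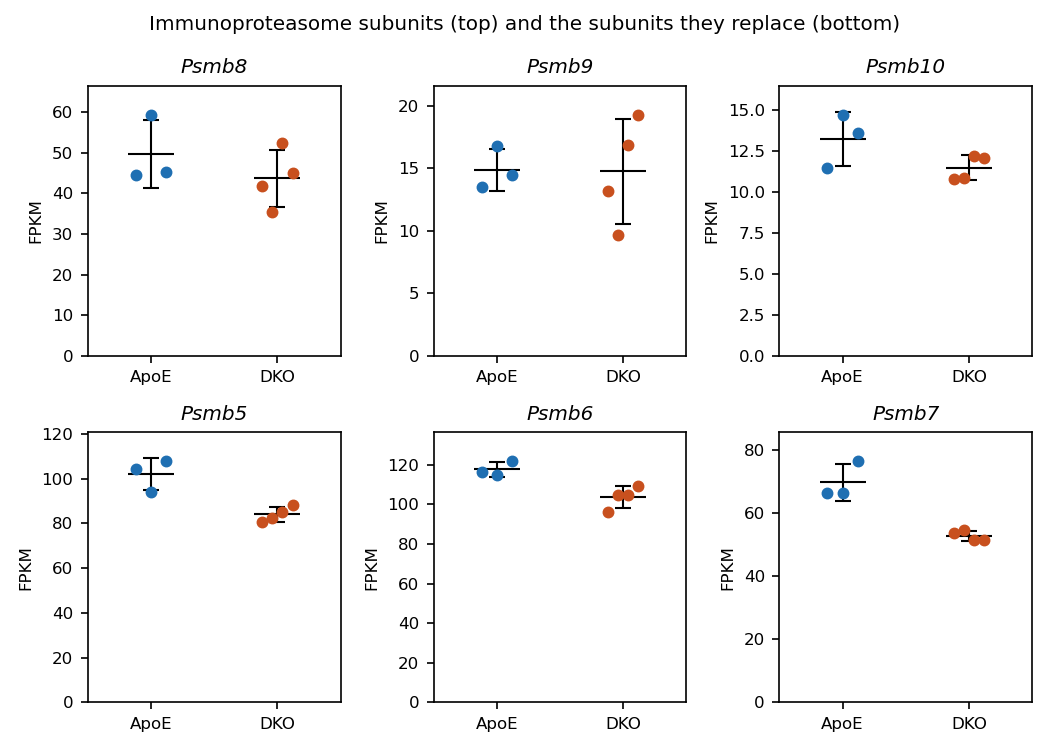
Deposited FPKM per library (points) with the group mean and SD (bars) for the immunoproteasome subunits in the top row and the constitutive subunits they replace in the bottom row, each axis starting at 0. The groups are apart for Psmb5, Psmb6 and Psmb7 and overlap for Psmb8, Psmb9 and Psmb10.

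The sum of the regulatory particle was lower in every DKO library than in any ApoE library. Its 17 subunits summed to 1948, 1763 and 1936 CPM in the ApoE and 1626, 1688, 1656 and 1643 CPM in the DKO libraries, a DKO mean of 87.8% of the ApoE mean, against 81.1% for the 14 constitutive core subunits. The mean log2 CPM of the core minus that of the regulatory particle was 0.0064, -0.0012 and 0.12 in ApoE 1 to ApoE 3 and -0.13, -0.11, -0.10 and -0.011 in DKO 1 to DKO 4. Of the 17 subunits 15 had a negative fold change, and 13 with RLE size factors, 12 in the fits on log2 FPKM, 11 without ApoE 1 and 9 with the length trend removed. DKO 4 lay close to ApoE 2 in the difference between core and regulatory particle, which was not tested. The median log2 fold change was -0.28 for the core and -0.12 for the regulatory particle. With the length trend removed these medians were -0.13 and -0.081.

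Among the ATPases, which form the unfolding ring, 4 of 6 had log2 fold changes of -0.27 to -0.33 and 2 were near 0. Psmc5 was at 110.0, 108 and 108 against 76.4, 91.4, 88.5 and 88.6 CPM (log2 fold change -0.33 with SE 0.084, adjusted p = 0.156), without overlap, and DKO 1 was the lowest library. Psmc3, at 61.9 FPKM the most abundant ATPase per length, was at 174, 155 and 178 against 127, 138, 137 and 142 CPM (log2 fold change -0.32 with SE 0.085, adjusted p = 0.158), also without overlap. Psmc1 was at 113, 98.7 and 95 against 103, 104, 101 and 94.5 CPM (log2 fold change -0.024 with SE 0.088, adjusted p = 0.907), with the groups interleaved and a fold change whose sign varied with the scaling (0.0041 with RLE size factors). Psmc2 (-0.27) was lower without overlap, while Psmc4 (-0.28) overlapped between ApoE 2 and DKO 4, and Psmc6 (-0.030) overlapped throughout.

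The 11 non-ATPase subunits divided into 5 that were lower without overlap, beside 9.24% of all genes, and 6 that overlapped. Psmd4, a ubiquitin receptor, was at 142, 121 and 154 against 94.3, 95.8, 95.7 and 112 CPM (log2 fold change -0.48 with SE 0.11, adjusted p = 0.146), and Psmd8, a lid subunit, was at 193, 154 and 199 against 140.4, 131, 149 and 137 CPM (log2 fold change -0.39 with SE 0.11, adjusted p = 0.16). Both were without overlap in CPM, and so were Psmd2 (-0.10), Psmd3 (-0.24) and Psmd13 (-0.25). The FPKM of Psmd2 overlapped (46.9, 52.4 and 46.7 against 50.1, 51.2, 48.1 and 43.9). Psmd11, another lid subunit, was at 66, 61.5 and 62 against 73.2, 65.8, 60.2 and 64.8 CPM (log2 fold change 0.063 with SE 0.088, adjusted p = 0.73), and the scaffold subunit Psmd1 was at 140.5, 145 and 131 against 153, 157, 142 and 122 CPM (log2 fold change 0.048 with SE 0.11, adjusted p = 0.843). In both, DKO libraries lay above and below the ApoE libraries. The deubiquitinase Psmd14 (-0.11), Psmd6 (-0.12), Psmd7 (-0.024) and Psmd12 (-0.044) also overlapped.

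Of the activators and inhibitors, the PA28 pair had the most negative fold changes. Psme1 (PA28 alpha) was at 92.2, 87.7 and 99.5 against 72.9, 68.1, 77 and 85.7 CPM (log2 fold change -0.30 with SE 0.10, adjusted p = 0.184), without overlap. Psme2 (PA28 beta) was at 66.1, 62.2 and 72.4 against 52.6, 49.6, 53.9 and 63 CPM (log2 fold change -0.29 with SE 0.11, adjusted p = 0.202), and DKO 4 lay above ApoE 2. Psme2b, a copy of Psme2 with which reads could be shared, was at 19.1, 20.1 and 19.6 against 20.3, 17.9, 15.9 and 18.7 CPM (log2 fold change -0.11 with SE 0.11, adjusted p = 0.608), so the split between those 2 rows is uncertain. Psme3, the nuclear PA28 gamma, was at 63.1, 63.8 and 64.9 against 67.7, 73, 65.6 and 57.5 CPM (log2 fold change 0.046 with SE 0.094, adjusted p = 0.83). Psme4, the activator PA200, was at 71.6, 81.2 and 86.2 against 95.7, 81.6, 84.3 and 76.7 CPM (log2 fold change 0.086 with SE 0.11, adjusted p = 0.685). Psmf1, the inhibitor PI31, was at 31.2, 26.9 and 29 against 24.9, 28.6, 29.1 and 28.9 CPM (log2 fold change -0.059 with SE 0.10, adjusted p = 0.781). For Psme3, Psme4 and Psmf1 the groups overlapped.

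The 7 assembly chaperones were read at 6.27 to 37.7 CPM and were mixed in sign. Psmd9 was at 28, 28.5 and 28.7 against 24.1, 22.2, 24.6 and 24 CPM (log2 fold change -0.26 with SE 0.081, adjusted p = 0.168) and was lower without overlap. Psmd10 was at 12.5, 10.9 and 11.5 against 13, 12.6, 12.7 and 12.7 CPM (log2 fold change 0.13 with SE 0.11, adjusted p = 0.526), the only member besides Psma8 that was higher without overlap. Psmd5, the most abundant of these 3 chaperones of the 19S base, was at 29.95, 36.5 and 35.9 against 32.2, 37.7, 32.2 and 31.8 CPM (log2 fold change -0.028 with SE 0.11, adjusted p = 0.912). Of the 4 chaperones of the core, Psmg3 was at 9.27, 10.7 and 12.3 against 7.42, 8.72, 7.55 and 9 CPM (log2 fold change -0.39 with SE 0.16, adjusted p = 0.228). It was lower without overlap in CPM, with DKO 4 close to ApoE 1, and its FPKM overlapped (7.59 in ApoE 1 and 7.93 in DKO 2). Psmg2, the most abundant of the 4 per length, was at 16.7, 12.2 and 16 against 11.9, 14.6, 15.7 and 15.2 CPM (log2 fold change -0.061 with SE 0.16, adjusted p = 0.866). Psmg1 had a log2 fold change of -0.19 and Psmg4 of 0.014. Psmg4 was highest in DKO 4 (10.7 CPM) and lowest in DKO 1 (6.27 CPM). Psmc3ip, which is not a proteasome subunit, was at 3.47, 2.53 and 2.45 against 2.78, 1.83, 2.35 and 2.35 CPM (log2 fold change -0.28 with SE 0.26, adjusted p = 0.58).

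Per gene length, levels within the core were unequal although its subunits are present in equal number in the particle. The 14 constitutive subunits averaged 22.7 FPKM (Psma3) to 133 FPKM (Psmb4) over all libraries, a 5.86-fold range. The ATPases spanned 38.5 to 61.9 FPKM and the non-ATPase subunits 21.4 to 80.2 FPKM. Psmb8 averaged 46.2, Psmb9 14.8 and Psmb10 12.2 FPKM, all below their counterparts Psmb5 (91.7), Psmb6 (109.7) and Psmb7 (60.1). A level per length rests on the transcript lengths that the authors' program took. In GENCODE M21 the longest RefSeq-linked transcript of Psma3 has 2846 bases, against 1165 for Psma4.

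The libraries at the 2 ends were the same for many members. ApoE 3 was the highest library for 25 of 49 members and for 11 of the 14 constitutive core subunits, and DKO 1 was the lowest for 21 and 9. Over all genes tested ApoE 3 was highest in 23.4% and DKO 1 lowest in 22.9%. Without ApoE 3 the median log2 fold change of the 49 members was -0.17, and without ApoE 3 and DKO 1 it was -0.16. For the constitutive beta subunits the median was -0.29 without both, and without ApoE 2 and ApoE 3, the libraries with the most atrial muscle transcripts, it was -0.39. That last fit has ApoE 1 as its 1 ApoE library, which is assumed to vary like the DKO libraries. In each of these 3 fits all 14 constitutive core subunits had negative fold changes.

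Transcript length moved with the fold changes. The 26 members with a transcript of up to 1500 bases had a median log2 fold change of -0.28 and the 23 longer ones of -0.10, beside -0.21 and 0.0072 over all genes tested of those lengths. Of the 26, 24 were negative, 16 lower without overlap and 13 called lower by limma voom, beside 1542, 359 and 469 of 2073 genes tested. Of the 23, 18 were negative, 9 lower without overlap and 4 called lower by limma voom, beside 5926, 954 and 962 of 12082 genes tested. The beta subunits were among the shortest (median 899 bases) and the non-ATPase subunits among the longest (median 1904 bases). Across the 49 members the rank correlation of fold change and length was 0.51, and over 14155 genes it was 0.27; both are across genes, which share the libraries. When a trend in length was removed from each library, the median of the 49 members was -0.078, that of the 3 immunoproteasome subunits -0.13 and that of the regulatory particle -0.081, and 11 of the 14 constitutive core subunits and 9 of the 17 subunits of the regulatory particle were negative. With a trend in GC content removed instead, the median was -0.18 for the 49 members, -0.33 for the constitutive beta subunits, -0.33 for the 14 core subunits and -0.15 for the regulatory particle. What sets the trend in length was not tested.

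**Figure D4:**
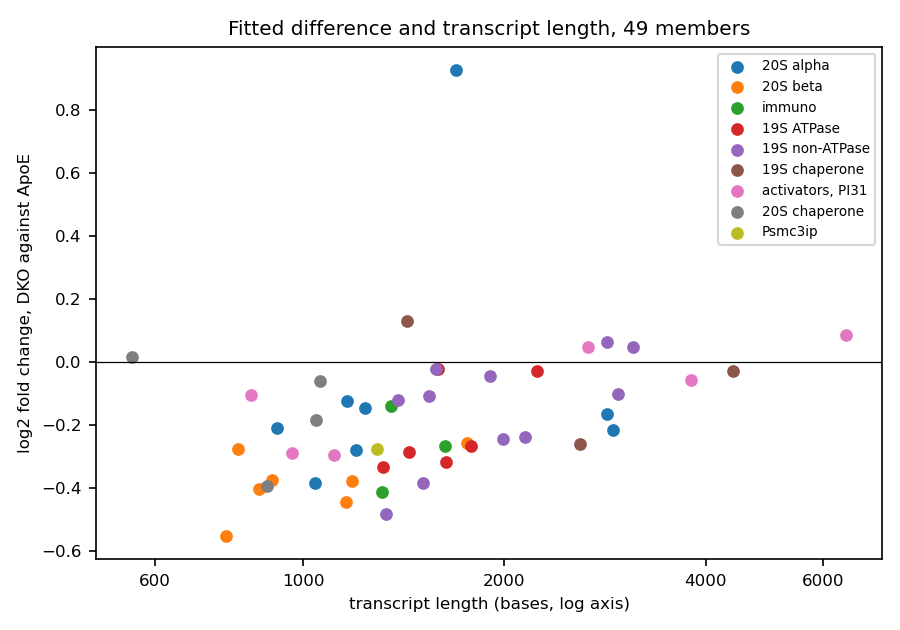
Each point is 1 of the 49 members, with the length of its longest RefSeq-linked transcript on a log axis and its edgeR log2 fold change (DKO against ApoE) on the other, coloured by role. Most transcripts under 1500 bases lie below 0, down to Psmb3 at -0.55, and the longest, Psme4, lies at 0.086.

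Proteins that work with the proteasome but lie outside the name rule had fold changes of both signs. Of 15 measured partners and shuttle factors, 7 had negative fold changes (median 0.031) and 0 passed edgeR's test, beside 0.0274% of all genes. DESeq2 called 0 and limma voom 2 lower, beside 4.80% and 10% of all genes called lower. The groups were without overlap for 0 of the 15, beside 9.24% lower and 7.08% higher over all genes. The ubiquitin receptor subunit gene Adrm1 was at 101, 78.3 and 99.5 against 67.5, 74.4, 70.3 and 80.02 CPM (log2 fold change -0.35 with SE 0.11, adjusted p = 0.178), and Shfm1, which encodes the smallest lid subunit, was at 125, 97.8 and 139 against 91.4, 92.9, 93.5 and 109.5 CPM (log2 fold change -0.32 with SE 0.13, adjusted p = 0.248). Both had fold changes in the range of the core, while the shuttle factor gene Rad23b was at 121, 121 and 107 against 142, 146, 128 and 113 CPM (log2 fold change 0.18 with SE 0.11, adjusted p = 0.393). Among 6 ubiquitin and ubiquitin-activating enzyme genes, Ubb, a polyubiquitin gene, was at 868, 807 and 781 against 616, 736, 652 and 742 CPM (log2 fold change -0.25 with SE 0.11, adjusted p = 0.265), without overlap. Uba6, an activating enzyme, was at 7.49, 15.2 and 9.27 against 20.4, 21, 17 and 11.4 CPM (log2 fold change 0.71 with SE 0.30, adjusted p = 0.251).

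No regulator of proteasome transcription was called by edgeR, which called 0.0274% of all genes lower and 0% higher. Of the 11 regulators DESeq2 called 0 and limma voom called 1 higher, beside 3.23% and 6.17% of all genes called higher. Nfe2l1, the factor that raises proteasome genes when the protease is inhibited, was at 364, 367 and 393 CPM in the ApoE and 384, 387, 368 and 361 CPM in the DKO libraries (log2 fold change -2.5e-04, SE 0.084). Ddi2, the protease that activates it, was at 12, 17.8 and 13.6 against 24.6, 23.2, 20.6 and 15.6 CPM (log2 fold change 0.53 with SE 0.20, adjusted p = 0.208). Nfya, a subunit of the CCAAT-binding factor, was at 49.3, 52.2 and 53 against 61.3, 55.4, 61.8 and 73.8 CPM (log2 fold change 0.29 with SE 0.11, adjusted p = 0.207), higher without overlap, and Maff, a small Maf partner, had a log2 fold change of -0.41 (adjusted p = 0.237). Of the 11 genes of this list 6 were negative and 5 positive.

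Genes of antigen processing and of the interferon-gamma response, many of which interferon-gamma induces together with the immunoproteasome, had medians near 0. Of 12 class I processing genes 6 were positive and 6 negative (median 0.048). The negative ones were H2-K1 (-0.27), Tap2 (-0.26), H2-D1 (-0.25), Tapbp (-0.19), B2m (-0.078) and Tapbpl (-0.043), all with overlap. DESeq2 called 3 of the 12 higher and limma voom 2, beside 3.23% and 6.17% of all genes, and neither called any lower. The 3 with the smallest p were the endoplasmic reticulum chaperones Pdia3 (log2 fold change 0.35 with SE 0.10, adjusted p = 0.162), Canx (0.41) and Calr (0.31), each higher without overlap. Of 19 measured interferon-gamma genes 12 were positive (median 0.074), with Ifngr2, a receptor chain, at 86.1, 83.6 and 78.8 against 115, 104, 98.2 and 111 CPM (log2 fold change 0.37 with SE 0.085, adjusted p = 0.146), the effector gene Iigp1 at a log2 fold change of 0.46 and Ciita, the activator of class II genes, at 0.52. The 7 interferon-gamma genes with negative fold changes ran from -0.23 (Igtp) to -0.0064 (Gbp3), all with overlap. DESeq2 called 1 of the 19 higher and limma voom 2, and neither called any lower. Ifng itself had 0 to 3 counts in every library and was not tested. The muscle ubiquitin ligase gene Fbxo32 was at 64.4, 54.4 and 69.5 against 76.2, 54.8, 83.9 and 82.6 CPM (log2 fold change 0.25 with SE 0.17, adjusted p = 0.438), and Trim63 was not tested, with 47 counts in ApoE 3 and 0 to 10 in the others.

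Several lists of other cell types and functions differed in the same direction as the core. The mean log2 CPM of 20 oxidative phosphorylation genes was 7.83, 7.49 and 8.39 in ApoE 1 to ApoE 3 and 7.10, 7.03, 6.93 and 7.43 in DKO 1 to DKO 4, beside 6.77, 6.61 and 6.85 and 6.37, 6.45, 6.44 and 6.52 for the 14 constitutive core subunits. ApoE 3 was the highest and ApoE 2 the lowest ApoE library, and DKO 4 the highest DKO library, in both. The lowest DKO library differed, being DKO 1 for the core (6.37) and DKO 3 for oxidative phosphorylation (6.93). White and brown adipocyte markers also had ApoE 3 highest, ApoE 2 lowest of the ApoE libraries and DKO 4 highest of the DKO libraries. Smooth muscle markers had a mean log2 CPM of 10.87, 10.25 and 10.65 against 9.38, 10.16, 10.28 and 11.22, with overlap. Like the core they had ApoE 2, DKO 1 and DKO 4 at these ends, but ApoE 1 was their highest ApoE library. The 8 white adipocyte markers summed to 5241 to 7099.5 against 2764 to 4494 CPM, and 6 of the 8 were lower without overlap, beside 9.24% of all genes. The 7 brown adipocyte markers summed to 686 to 1979.8 against 265 to 606 CPM. The 12 leukocyte markers all had positive fold changes, and their sums overlapped (1667 to 2663 against 1814 to 4044 CPM). Endothelial markers summed to 1360.0 to 1602 against 1221 to 1628 CPM, skeletal muscle markers to 18.8 to 134 against 9.33 to 95.6 CPM and erythroid markers to 35.5 to 165 against 47.1 to 271 CPM, all with overlap. The 6 fibroblast markers had a mean log2 CPM of 9.95, 9.92 and 10.01 in the ApoE and 9.84, 9.71, 9.75 and 9.34 in the DKO libraries, lower without overlap. They differed in sign, with 3 negative and 3 positive. Dpt, Dcn and Pi16 (log2 fold changes -0.52, -0.43 and -1.45) were each lower without overlap. Pdgfra, Lum and Col1a1 (0.24, 0.23 and 0.32) were positive and overlapped. The summed level of the 6, in which Col1a1 weighs most, overlapped (12238 to 13604 against 9354 to 18818 CPM). No marker of these lists was at 0 in all libraries. The part of these cells in the proteasome levels was not tested.

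**Figure D5:**
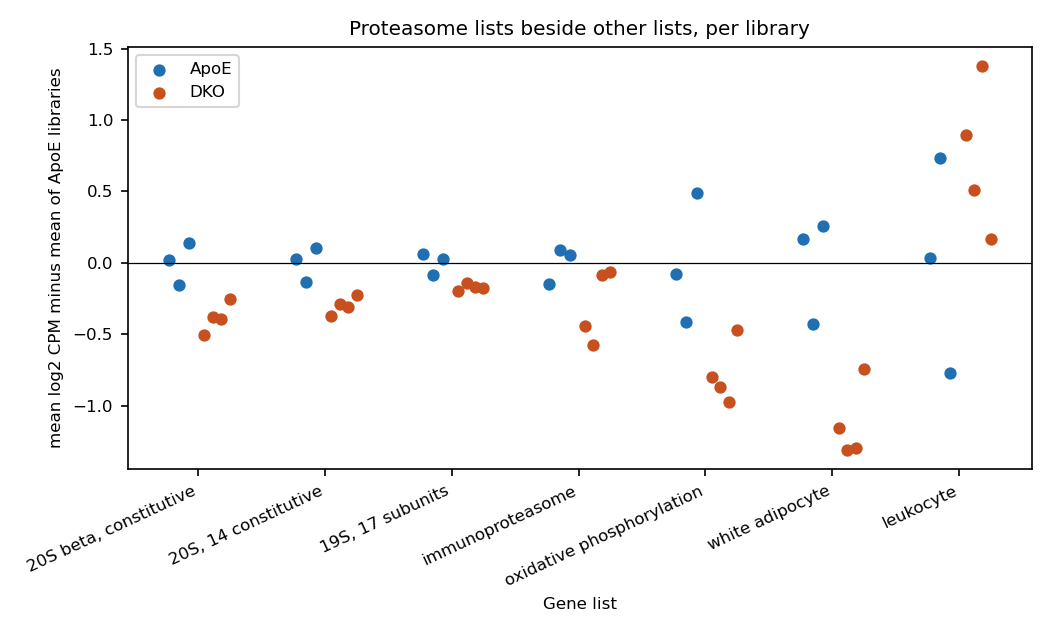
Points are libraries (blue ApoE, orange DKO) and the axis is the mean log2 CPM of each list minus its mean in the ApoE libraries. The core and the regulatory particle are lower in all 4 DKO libraries, the oxidative phosphorylation and white adipocyte lists lie further below 0 in those libraries, and the leukocyte markers overlap.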

How the data were processed

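Messenger RNA libraries of 7 abdominal aorta samples were made with the TruSeq Stranded mRNA kit, which marks strand, per the labels' protocols. Trimmomatic, HISAT2, HTSeq, Cufflinks and DESeq are named with GRCm38.p6 per the submitters' processing notes; the sources used here give no versions, filters or strand settings. The authors deposited raw gene counts, which were not normalised, and FPKM, in which the authors' values are per gene length and sequencing depth. Reads of close copies and antisense genes could be split between rows.

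Counts were normalised by TMM and genes kept by filterByExpr (minimum count 10), leaving 14609. Groups (3 against 4 libraries, none dropped) were compared with edgeR 4.0.16's quasi-likelihood test in R 4.3.3, with Benjamini-Hochberg adjustment over all genes and a threshold of 0.05, after a test on simulated data. Standard errors were derived from the fold change and its F statistic. Log2 CPM used a prior count of 2. Alternatives used DESeq2 1.42.0, limma 3.58.1 (voom, and log2 FPKM with pseudocounts of 1 and 0.1), RLE size factors, other filters, a replicate block, libraries left out, and lowess trends (span 0.3) in length or GC of GENCODE M21 transcripts (96.9% of genes).

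Members and lists were chosen with earlier results of these data known. The genes named are the immunoproteasome subunits with their counterparts, the activators and inhibitor, for each role the members with the highest and lowest fold change and the highest FPKM, Psma8, Psmb11 and Psmc3ip, and up to 3 genes with the smallest p per outside list, of which 1 is not reported here. Psmd1, Psme2b and Nfe2l1 were added after their values were seen, and so were the class I and interferon-gamma genes with negative fold changes. Other members are given by their fold change. Members were matched to RefSeq by gene identifier (49 of 49).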

Additional observations from a re-analysis of the deposited data

Results flagged for a closer look

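In 3 of the 49 members 1 DKO library lay apart from the other 3 beyond the critical value of Dixon's test at the 95% level; about 1 group in 20 does so by chance, and groups of 3 were not examined. Psmd4 was at 112 CPM in DKO 4, above 94.3, 95.8 and 95.7 CPM in DKO 1 to DKO 3 and below all ApoE libraries. Psmd5 was at 37.7 CPM in DKO 2, above 31.8 to 32.2 CPM in the others. Psmf1 was at 24.9 CPM in DKO 1, below 28.6 to 29.1 CPM in the others.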

How the results depend on the processing

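Of the members 0 were called by edgeR at adjusted p under 0.05, 24 were lower and 1 higher at an unadjusted p under 0.05, DESeq2 called 12 lower and limma voom 17. The other alternatives also gave 0, which says nothing of stability in the fits with fewer libraries; without ApoE 2 and ApoE 3 the ApoE arm is 1 library, assumed to vary like the DKO libraries. The median log2 fold change of the members ranged from -0.26 to -0.17 over the fits that left out 1 library, and was -0.078 with the length trend removed, which was chosen after seeing the data. Over all genes, 4 were lower and 0 higher. DESeq2 gave 673 lower and 453 higher and limma voom 1467 and 902. The replicate block, unfiltered log2 FPKM and the fit without ApoE 2 and ApoE 3 gave 0 lower, the fit without ApoE 3 and DKO 1 gave 0 lower and 2 higher, the GC correction 2 lower, the length correction 1 higher and the filtered log2 FPKM fits 1 higher each; leaving out 1 library gave 0 to 2 lower and 0 to 4 higher. In the replicate block, in which DKO 4 has no partner, the median of the members was -0.26. Deviations from the group mean had r = -0.39, 0.70 and 0.0036 between same-numbered libraries. The 0.70, of ApoE 2 and DKO 2, was the highest of all pairs across the groups. Deviations within groups of 3 and 4 libraries are bound to each other, so these values cannot decide whether numbers pair libraries. Fold changes near 0 changed sign, the cause of which was not tested. Psmb9 (-0.14) was at 0.027 with ApoE 2 and ApoE 3 left out, 0.019 with the length trend removed and -0.32 to 0.027 with 1 library left out. Psmc1 (-0.024) was at 0.0041 with RLE size factors, 0.0040 with DESeq2, 0.0083 with the replicate block, 0.019 with log2(FPKM + 1), 0.019 with log2(FPKM + 0.1), 0.019 with unfiltered log2(FPKM + 1), 0.13 with the length trend removed, 0.0041 with the GC trend removed and -0.075 to 0.055 with 1 library left out. Psmd11 (0.063) was at -0.017 with limma voom, -0.0032 with ApoE 2 and ApoE 3 left out and -0.0043 with ApoE 3 and DKO 1 left out. Psmd5 (-0.028) was at 0.046 with limma voom, 0.16 with ApoE 2 and ApoE 3 left out, 0.027 with ApoE 3 and DKO 1 left out, 0.047 with log2(FPKM + 1), 0.051 with log2(FPKM + 0.1), 0.047 with unfiltered log2(FPKM + 1) and -0.11 to 0.024 with 1 library left out. Psme4 (0.086) was at -0.026 with the length trend removed and -0.0081 with the GC trend removed. Psmf1 (-0.059) was at 0.024 with log2(FPKM + 1), 0.027 with log2(FPKM + 0.1), 0.024 with unfiltered log2(FPKM + 1) and -0.11 to 0.012 with 1 library left out. Psmg2 (-0.061) was at 0.069 with ApoE 3 and DKO 1 left out, 0.17 with the length trend removed and -0.19 to 0.039 with 1 library left out. Psmg4 (0.014) was at -0.042 with limma voom, -0.14 with the replicate block, -0.041 with ApoE 2 and ApoE 3 left out and -0.13 to 0.15 with 1 library left out. None of these was called. Counts per library of 19295287 to 21727192 limit single genes near the floor of 3 counts, such as Psma8.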
